A study of Homo sapiens with 30 samples.

Results

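The histone genes on the array were studied in 5 malignant T-cell lines with and without exposure to CHOEP. They were taken as all probes whose gene carries, in its older nomenclature, a symbol starting with HIST1H, HIST2H, HIST3H, HIST4H, H1F, H2AF or H3F. This gave 103 probes of 86 genes, out of 47323 probes with values. Of these, 79 probes of 70 genes belong to the histone gene clusters (HIST symbols), and 24 probes of 16 genes to the histone variants (H1F, H2AF and H3F symbols). One further probe is assigned to 2 clustered H3 genes at once and was not used. Of the 70 clustered genes, 55 lie on chromosome 6, 14 on chromosome 1 and 1 on chromosome 12. The array annotation uses the current symbols, so that each gene is called by its current symbol here, with the older one at first mention.

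Gene expression was measured on Illumina HumanHT-12 v4 arrays in HD-MAR-2 and JURKAT (T-cell leukaemia), SUP-T1 (lymphoblastic TCL), KARPAS-299 (anaplastic large-cell lymphoma) and HH (cutaneous TCL). For each line, 3 cultures were left untreated and 3 were exposed for 24 h to CHOEP at the IC50 of that line, which gave 30 arrays in 10 groups. CHOEP combines cyclophosphamide, doxorubicin, vincristine, etoposide and prednisone. Doxorubicin and etoposide trap topoisomerase II on DNA, vincristine blocks microtubule assembly, prednisone is a glucocorticoid, and cyclophosphamide is a prodrug that the liver converts to an alkylating agent. Each line is a single established line, and the labels describe the cultures as biological replicates, so that p-values measure the spread between cultures of 1 line.

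Histones package DNA into nucleosomes, in which H2A, H2B, H3 and H4 form the core and H1 binds the linker. Most clustered genes are replication-dependent: they are transcribed in S phase, and their mRNAs end in a stem-loop, bound by SLBP, instead of a poly(A) tail. Most variant genes lie outside the clusters, have polyadenylated mRNAs and are expressed throughout the cell cycle, while others are germ-cell genes. Some clustered genes can also give polyadenylated transcripts when cells stop dividing. The paper names the Illumina TotalPrep RNA Amplification Kit for the labelled RNA. Whether the signal of a clustered gene came from stem-loop or from polyadenylated mRNA was not tested. Levels and changes below are therefore not a measure of stem-loop mRNA.

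Between 16003 and 18239 probes were detected per array at a detection p under 0.01. All 30 arrays correlated best with another array of the same line, and 28 with one of the same line and treatment. Of 11 T-cell genes, 11 were detected on all 3 untreated arrays of SUP-T1, JURKAT and HD-MAR-2, 8 of HH and 5 of KARPAS-299, in which CD3E, CD3G, CD2, CD7, CD28 and LCK were not. Of 13 markers of other cell types, 11 of them with a probe, 1 to 3 were detected in the same way. The 6 arrays of a line shared a chip that held no array of another line used here, so that line and chip cannot be told apart. Within each chip the treated and the untreated arrays had fixed positions, so that position and treatment cannot be told apart either.

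Promoters are shown of the 4 genes called up and of 2 of the 5 called down in SUP-T1, because clustered histone genes of a family share promoter elements. RefSeq (GRCh38.p14) gives a window of 250 bases before to 50 bases after the start for 79 of the 86 genes. Capitals mark every match, on either strand, of the octamer ATTTGCAT, of CCAAT and of TATAAA, and adjoining capitals can belong to overlapping matches. H2BC5 lies at chr6:26157871-26158170 (plus strand), H2BC21 at chr1:149886633-149886932 (minus strand), H2AC11 at chr6:27132793-27133092 (plus strand), H4C8 at chr6:26285485-26285784 (minus strand), H2BC7 at chr6:26199266-26199565 (plus strand) and H2AC4 at chr6:26033569-26033868 (minus strand). The order is that of the calls, with the 4 upregulated genes first.
H2BC5: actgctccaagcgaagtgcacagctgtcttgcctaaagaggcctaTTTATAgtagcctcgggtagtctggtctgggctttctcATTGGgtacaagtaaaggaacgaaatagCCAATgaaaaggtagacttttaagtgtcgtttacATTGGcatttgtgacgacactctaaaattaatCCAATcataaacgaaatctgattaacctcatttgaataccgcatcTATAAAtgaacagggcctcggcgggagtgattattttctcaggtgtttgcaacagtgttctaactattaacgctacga
H2BC21: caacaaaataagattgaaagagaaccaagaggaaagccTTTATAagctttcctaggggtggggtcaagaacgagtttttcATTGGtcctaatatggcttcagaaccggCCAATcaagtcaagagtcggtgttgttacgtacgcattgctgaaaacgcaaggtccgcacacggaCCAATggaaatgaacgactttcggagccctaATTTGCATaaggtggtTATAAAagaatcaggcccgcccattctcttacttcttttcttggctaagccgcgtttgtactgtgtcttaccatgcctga
H2AC11: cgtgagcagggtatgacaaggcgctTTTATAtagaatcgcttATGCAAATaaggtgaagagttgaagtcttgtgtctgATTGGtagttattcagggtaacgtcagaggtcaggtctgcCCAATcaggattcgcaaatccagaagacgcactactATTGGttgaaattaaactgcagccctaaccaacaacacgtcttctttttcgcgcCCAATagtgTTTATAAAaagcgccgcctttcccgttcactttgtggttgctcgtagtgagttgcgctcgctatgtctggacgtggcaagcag
H4C8: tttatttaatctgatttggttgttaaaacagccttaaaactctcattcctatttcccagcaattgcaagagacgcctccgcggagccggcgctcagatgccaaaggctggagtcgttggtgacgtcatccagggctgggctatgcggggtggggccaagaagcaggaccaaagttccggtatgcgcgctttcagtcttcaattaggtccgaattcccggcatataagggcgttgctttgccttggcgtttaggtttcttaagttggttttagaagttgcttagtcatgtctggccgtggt
H2BC7: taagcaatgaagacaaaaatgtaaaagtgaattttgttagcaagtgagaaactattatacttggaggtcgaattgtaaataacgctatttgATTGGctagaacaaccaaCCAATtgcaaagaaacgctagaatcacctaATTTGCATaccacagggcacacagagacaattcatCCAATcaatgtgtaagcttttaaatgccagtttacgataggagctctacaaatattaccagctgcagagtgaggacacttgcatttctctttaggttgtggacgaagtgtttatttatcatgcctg
H2AC4: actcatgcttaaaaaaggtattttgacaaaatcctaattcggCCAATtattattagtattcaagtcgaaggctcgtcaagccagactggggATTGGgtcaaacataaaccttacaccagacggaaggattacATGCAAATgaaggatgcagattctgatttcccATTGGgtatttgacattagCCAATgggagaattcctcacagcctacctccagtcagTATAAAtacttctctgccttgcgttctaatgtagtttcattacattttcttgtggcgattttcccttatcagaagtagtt

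The octamer was found in 14 of 18 clustered H2B promoters and in 11 of 16 clustered H2A promoters, but in 1.77% of all 35116 promoters of this length. The windows of H2A and H2B genes that lie head to head overlap, so that 1 octamer can count in both families. None of the 13 clustered H4 promoters held it, and among 12 H3 promoters the 1 match was that of H3C4, for which RefSeq gives the same window as for H2AC7. CCAAT stood in 55 of 65 clustered promoters (34.6% of all promoters) and TATAAA in 43 of 65 (11.5% of all promoters). The motif AAACACA, searched on both strands, stood in all 6 promoters of clustered H1 genes, against 5.64% of all promoters. Of the promoters printed, H2BC21, H2AC11, H2BC7 and H2AC4 held the octamer while H2BC5 did not, and H4C8 held none of the 3 motifs in capitals. A match is a description of the letters and not evidence of a bound site.

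Clustered genes were detected less uniformly than variant genes. Of the 79 clustered probes, 24 (30.4%) were detected on all 30 arrays, 17 (21.5%) on none and 38 on some. Of the 24 variant probes, 16 (66.7%) were detected on all arrays and 4 (16.7%) on none. Over all probes with 1 gene symbol, 30.9% were detected on all arrays and 39.3% on none. Among the clustered genes whose probes were silent on every array were H1-6 (HIST1H1T), H2AC1 (HIST1H2AA) and H2BC1 (HIST1H2BA), which encode testis histones. Both H1 variants of germ cells, H1-7 (H1FNT) and H1-8 (H1FOO), were also silent.

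**Figure D1:**
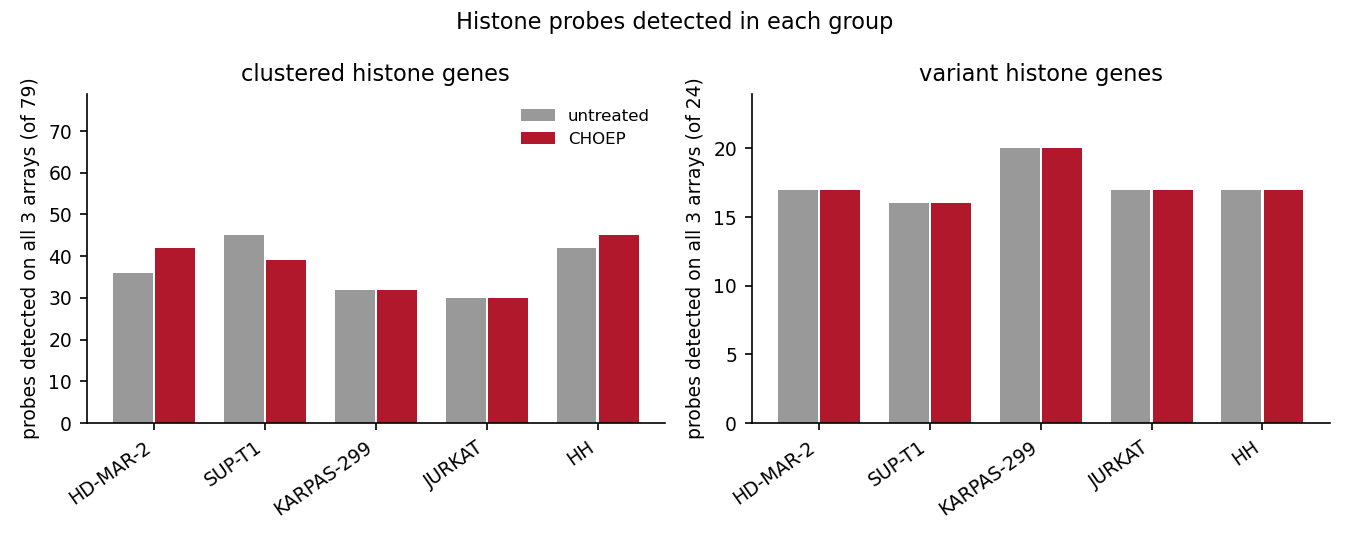
Number of histone probes detected at a detection p under 0.01 on all 3 arrays of a group, for clustered genes (left, of 79 probes) and variant genes (right, of 24 probes), in untreated (grey) and CHOEP-treated (red) cells. Clustered probes rose from 36 to 42 in HD-MAR-2 and went from 45 to 39 in SUP-T1, while the variant counts were the same with and without CHOEP in every line.

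The number of clustered probes detected on all 3 arrays of a group went from 36 in untreated to 42 in CHOEP-treated HD-MAR-2 cells, and from 42 to 45 in HH. In SUP-T1 the number went from 45 to 39. KARPAS-299 had 32 and JURKAT 30, each with and without CHOEP. The variant counts were 17 in HD-MAR-2, JURKAT and HH, 20 in KARPAS-299 and 16 in SUP-T1, in both conditions. These counts are descriptive and were not tested. The probes that passed the filter for testing (detected on at least 3 arrays) represented 53 of the 70 clustered and 13 of the 16 variant genes, and each gene is given by the brightest of its probes over all arrays. The filter can pass a gene through the group in which it is high.

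In untreated cells, the clustered genes were most often highest in SUP-T1 or HH. SUP-T1 had the highest mean for 25 of 53 clustered genes (47.2%, against 23.9% of all 12482 genes tested) and HH for 23 (43.4%, against 20.8%). HD-MAR-2 was highest for 2, KARPAS-299 for 3 and JURKAT for 0, and JURKAT was lowest for 20 (37.7%, against 17.4% of all genes). The untreated level differed between lines for 53 of 53 clustered and 13 of 13 variant genes (limma F test, adjusted p under 0.05), but so it did for 95.5% of all genes, so that this count says nothing particular about histones. The range of the 5 untreated means had a median of 2.11 on the log2 scale for clustered genes, 1.38 for variant genes and 1.49 for all genes. Ranges include groups at background and are then compressed.

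**Figure D2:**
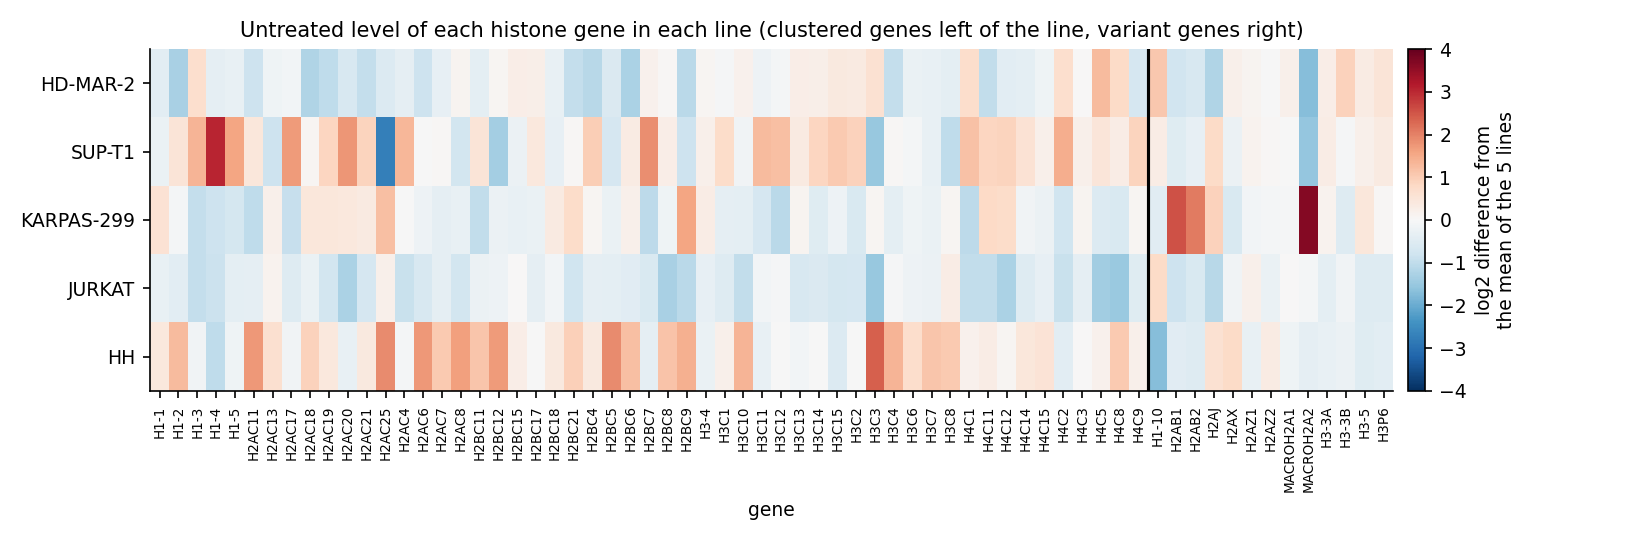
Untreated level of each tested histone gene in each line, as the log2 difference from the mean of the 5 untreated line means of that gene (colour, blue below and red above). Clustered genes stand left of the black line and variant genes right of it, and the red cells of clustered genes lie mostly in SUP-T1 and HH, with MACROH2A2 in KARPAS-299 the darkest among variants.

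The 3 clustered genes with the widest range were H2AC25 (HIST3H2A), H1-4 (HIST1H1E) and H3C3 (HIST1H3C). For H2AC25, which encodes a core histone, the untreated HH arrays read 10.72, 10.81 and 10.84 on the log2 scale and the SUP-T1 arrays 5.71, 6.20 and 6.59, 2 of which detected it. The 2 groups did not overlap, and the difference of the means was 4.62 (adjusted p for the difference between lines = 2e-17, limma). The linker histone H1-4 read 8.29, 8.92 and 9.11 in untreated SUP-T1 cells and was detected on no untreated array of the other lines. H3C3 read 8.57, 8.53 and 8.56 in HH and was detected on no array of SUP-T1 or JURKAT. For these last genes the low groups lie at background, so that no fold is given.

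Among variants, MACROH2A2 (H2AFY2), a macroH2A linked with silent chromatin, had the widest range. Its untreated KARPAS-299 arrays read 11.52, 11.61 and 11.48, and its HD-MAR-2 arrays 6.27, 6.18 and 6.04, a difference of 5.38 on the log2 scale (adjusted p between lines = 2.46e-19). JURKAT (7.84, 7.75 and 7.74) and HH (7.51, 7.54 and 7.40) lay between them. SUP-T1 (6.45, 6.51 and 6.01) overlapped HD-MAR-2. H2AB1 (H2AFB1) and H2AB2 (H2AFB2) on chromosome X encode the short H2A.B histone of the germ line. Both were detected on all 6 arrays of KARPAS-299 and on no array of another line. The untreated KARPAS-299 arrays read 8.43, 8.84 and 8.25 for H2AB1 and 7.43, 7.94 and 7.23 for H2AB2. The copies are near-identical, so that the signal cannot be assigned to 1 of them. The linker variant H1-10 (H1FX) went the other way and was lowest in HH (8.59, 8.63 and 8.30) and highest in HD-MAR-2 (11.43, 11.27 and 11.15). In contrast, H2AZ1 (H2AFZ), H2AZ2 (H2AFV) and H3-3A (H3F3A) had ranges of 0.49, 0.61 and 0.68 on their brightest probes. Another H3-3A probe ranged wider, with 13.73, 13.93 and 13.79 in untreated JURKAT and 15.15, 15.01 and 15.02 in untreated HD-MAR-2 cells.

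CHOEP changed many clustered genes in HD-MAR-2 and SUP-T1, and no variant gene passed the fold threshold. So few of all genes were called that a count of 0 among 13 variant genes says nothing particular about them. In HD-MAR-2, 16 of 53 clustered genes were upregulated and 0 downregulated (limma, adjusted p under 0.05 and a change of 2-fold or more), whereas 1.86% of all genes were called up and 1.8% down. In SUP-T1, 4 clustered genes were upregulated and 5 downregulated (1.59% and 0.817% of all genes). No clustered gene was called in KARPAS-299 (0.569% of all genes up and 0.729% down), JURKAT (0.0481% up and 0% down) or HH (1.92% up and 0.857% down) by limma. At an unadjusted p under 0.05 these lines had 7, 7 and 22 of 53 clustered genes, against 2229, 786 and 3895 of all 12482. No variant gene was called in any line, with 6 of 13 in HD-MAR-2, 5 in SUP-T1, 1 in HH, 0 in JURKAT and 0 in KARPAS-299 at an unadjusted p under 0.05. Over all 12482 genes, HD-MAR-2 had 5042 and SUP-T1 4545 at such a p. In bulk RNA, fewer cells that express a gene and less mRNA per cell cannot be told apart.

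The median log2 fold change of the 53 clustered genes was 0.56 for HD-MAR-2, -0.12 for SUP-T1, -0.06 for KARPAS-299, 0.03 for JURKAT and 0.29 for HH. That of the 13 variant genes was 0.03, -0.14, -0.02, 0.05 and 0.03, and the median of all genes lay between -0.01 and 0.01 in every line. The clustered genes were most spread in SUP-T1, from -1.43 to 2.10. They spread from -0.29 to 2.36 in HD-MAR-2, and only from -0.40 to 0.52 in JURKAT.

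**Figure D3:**
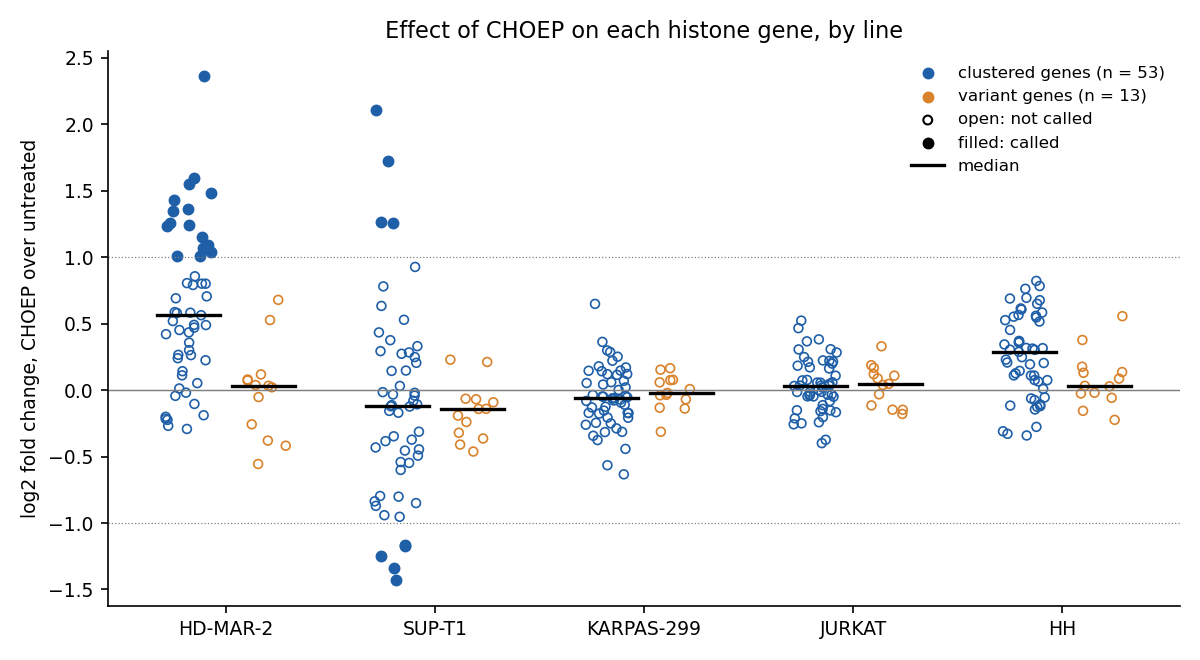
Log2 fold change (CHOEP over untreated) of each tested histone gene in each line, for 53 clustered genes (blue) and 13 variant genes (orange), with called genes filled, the median as a black bar, and dotted lines at a fold change of 2. In HD-MAR-2 the called clustered genes all lie above 0, in SUP-T1 4 lie above and 5 below, and no variant gene is filled.

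With the adjusted p alone, 32 clustered genes rose and 0 fell in HD-MAR-2 (14.9% and 15.8% of all genes), of which H2BC6 and H3C8 were detected on no array of that line, and 10 rose and 17 fell in SUP-T1 (12.3% and 13.9%). In HH, 17 rose and 0 fell (9.89% and 9.64%). In KARPAS-299, 1 gene passed upwards and 1, detected on none of its arrays, downwards (2.8% and 4.02%). In JURKAT no gene passed (0.12% and 0.024%), with 7 at an unadjusted p under 0.05 (786 of all 12482 genes). The counts with a fold threshold depended on the processing. With the normalised values of the authors, in which low signals are not background-corrected, 5 clustered genes were called up in HD-MAR-2, and 4 up and 1 down in SUP-T1. Median scaling gave 9 up in HD-MAR-2, and 4 up and 10 down in SUP-T1.

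The genes past the 2-fold threshold in HD-MAR-2 came from every family except H1, in which 3 of 5 genes rose at an adjusted p under 0.05 alone. Called upregulated were 5 of 12 H2A, 4 of 12 H2B, 3 of 14 H3, 4 of 10 H4 and 0 of 5 H1 genes, and the family medians lay between 0.43 (H3) and 0.82 (H4). The largest change was that of H4C1 (HIST1H4A), a core H4 gene. Its untreated HD-MAR-2 arrays read 6.63, 6.73 and 6.69, and the treated arrays 8.79, 9.22 and 9.13, so that the groups were far apart. H4C1 rose 5.14-fold (log2 fold change 2.36 ± 0.16 SE, adjusted p = 1.71e-11). In SUP-T1 it read 7.12, 7.15 and 7.22 without and 7.08, 6.99 and 6.90 with CHOEP, a log2 fold change of -0.17 (adjusted p = 0.499), and KARPAS-299 and JURKAT did not detect it.

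H2BC21 (HIST2H2BE) and H2BC5 (HIST1H2BD), whose H2B mRNAs can be polyadenylated, were the only genes called up in both HD-MAR-2 and SUP-T1. Both are in the study's own list of CHOEP-regulated genes, which was chosen on these samples, so that their direction is not independent evidence. H2BC21 read 7.31, 7.52 and 7.54 in untreated and 9.19, 8.98 and 8.99 in treated HD-MAR-2 cells, a 3.02-fold rise (adjusted p = 3.51e-10). In SUP-T1 it went from 8.50, 8.34 and 8.51 to 9.69, 9.71 and 9.73, a 2.39-fold rise (adjusted p = 3.19e-08). No treated array overlapped an untreated one in either line.

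H2BC5 read 9.03, 8.97 and 8.83 in untreated and 10.15, 10.24 and 10.15 in treated HD-MAR-2 cells, and rose 2.35-fold (adjusted p = 3.51e-10). In SUP-T1 it read 8.98, 8.84 and 8.79 without and 10.93, 10.92 and 11.06 with CHOEP, a 4.30-fold rise (adjusted p = 9.19e-15) and the largest of any histone gene in that line. A second H2BC5 probe disagreed in size. On that probe the log2 fold change was 0.56 in HD-MAR-2 (adjusted p = 0.00199) and 0.27 in SUP-T1 (adjusted p = 0.142), against 1.24 and 2.10 on the first. The remaining H2BC5 probe was detected on no array.

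**Figure D4:**
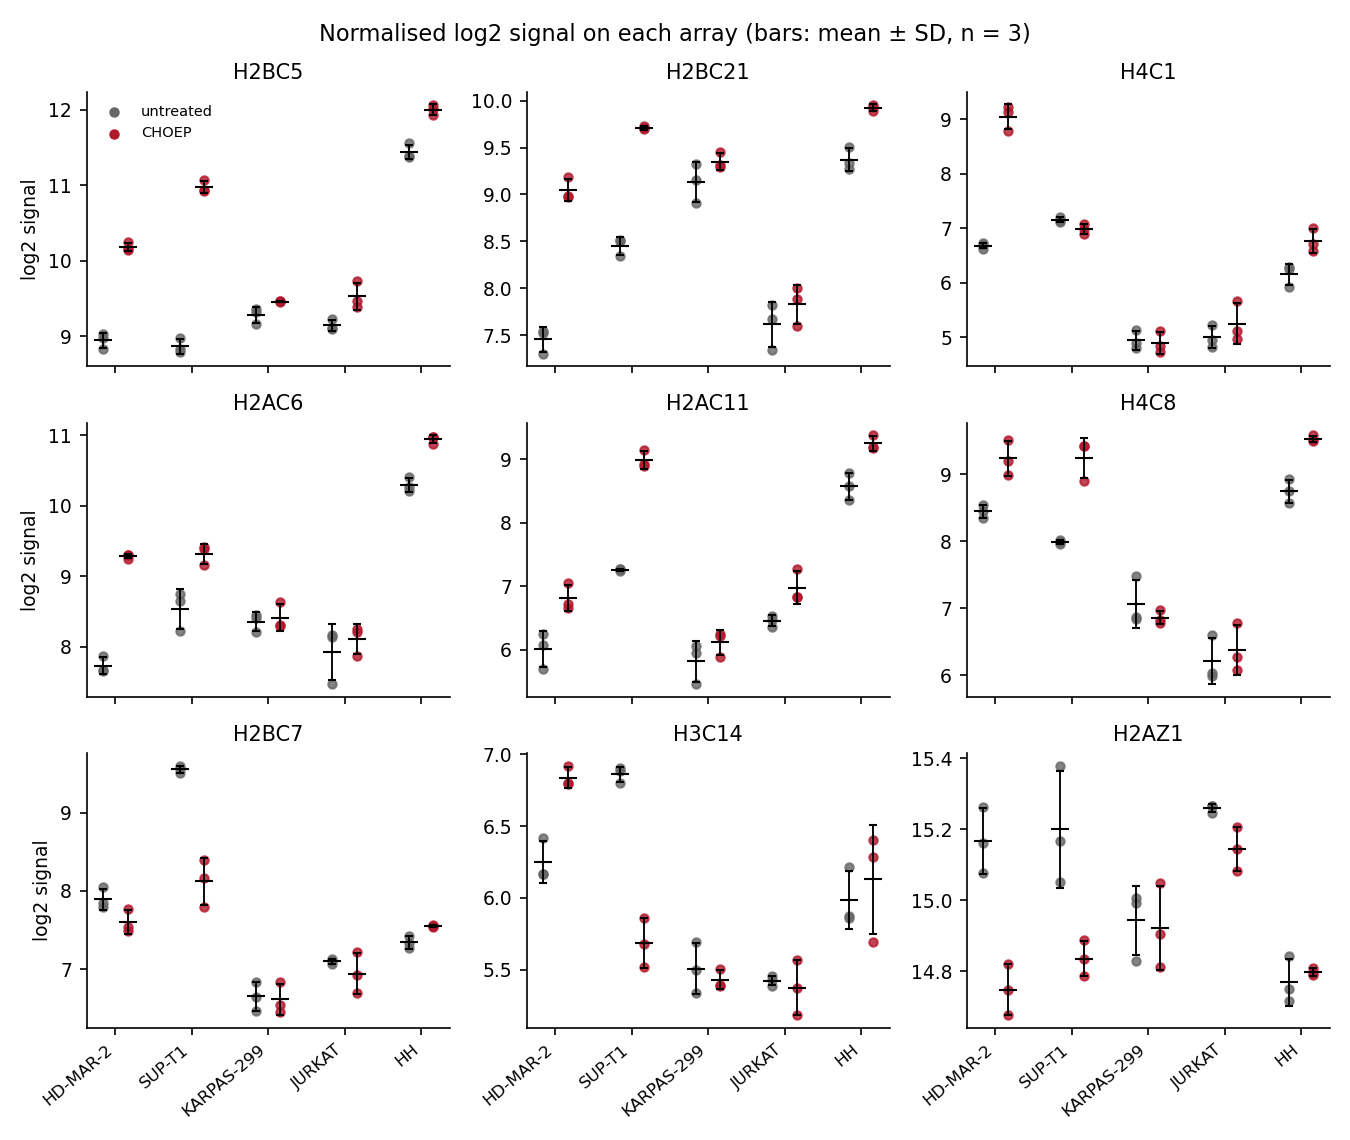
Normalised log2 signal of 9 histone genes on each array, untreated (grey) and CHOEP-treated (red), with the mean and SD of 3 arrays in black. H2BC5 and H2BC21 separate the conditions in HH, SUP-T1 and HD-MAR-2, H4C1 mainly in HD-MAR-2, H2AC11 most in SUP-T1, and H2BC7 and H3C14 are lower with CHOEP in SUP-T1. The vertical scales differ between panels.

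The other upregulated H2A genes in HD-MAR-2 were H2AC6 (HIST1H2AC), H2AC18 (HIST2H2AA3), H2AC17 (HIST1H2AM), H2AC8 (HIST1H2AE) and H2AC25. H2AC6 read 7.67, 7.87 and 7.66 in untreated and 9.25, 9.30 and 9.30 in treated cells, with no overlap, and rose 2.93-fold (adjusted p = 2.7e-08). H2AC18, which has an identical copy in H2AC19 (HIST2H2AA4), rose 2.22-fold, and its second probe 2.57-fold. The H2AC19 probe read 9.27, 9.61 and 9.48 without and 10.10, 10.33 and 10.34 with CHOEP, and was not called. H2AC17 rose 2.10-fold and H2AC25 2.01-fold. H2AC8 was detected on no untreated HD-MAR-2 array and on all treated ones, with a fitted log2 fold change of 1.04, and was at least 1.58-fold higher with CHOEP. For such genes the undetected group was set, on each array, to the lowest detected signal or to its own signal where higher. The calls of H2AC8, H2AC17, H2AC25 and H4C12 (HIST1H4K) rest on single arrays. Without untreated replicate 1 their log2 fold changes were 0.73, 0.78, 0.99 and 0.93, below the fold threshold. Leaving out treated replicate 1 (H2AC8, 0.93), treated replicate 3 (H2AC25, 0.95, and H4C12, 0.99) or untreated replicate 3 (H2AC25, 0.97) also lost the call.

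Of the H2B genes, H2BC15 (HIST1H2BN) was also detected only in treated HD-MAR-2 cells, where its arrays read 6.94, 7.16 and 6.94, at least 1.98-fold higher than without CHOEP (adjusted p = 3.32e-07). H2BC8 (HIST1H2BG) read 6.38, 6.33 and 6.46 without and 7.33, 7.52 and 7.59 with CHOEP and rose 2.13-fold (adjusted p = 8.49e-07). In SUP-T1 it went the other way, from 6.77, 6.46 and 6.61 to 5.78, 5.65 and 5.55, where no treated array detected it, at least 1.48-fold lower (log2 fold change -0.95, adjusted p = 9.69e-06).

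Of the H3 genes, H3C12 (HIST1H3J) rose 2.70-fold, from 6.57, 6.48 and 6.66 to 7.89, 8.05 and 8.07 (adjusted p = 2.23e-07). H3C1 (HIST1H3A) rose 2.57-fold, with 1 of 3 untreated and all 3 treated arrays detected. H3C4 (HIST1H3D) was detected on no untreated HD-MAR-2 array, read 6.98, 7.44 and 7.23 with CHOEP, and was at least 2.28-fold higher (adjusted p = 1.77e-09). Besides H4C1, the H4 genes H4C14 (HIST2H4A), H4C2 (HIST1H4B) and H4C12 rose 2.39-, 2.36- and 2.01-fold. H4 genes encode 1 protein, and clustered genes of a family are alike in sequence, so that a probe may also read a neighbouring copy.

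In SUP-T1, H2AC11 (HIST1H2AG) and H4C8 (HIST1H4H) were upregulated beside H2BC5 and H2BC21. H2AC11 read 7.24, 7.27 and 7.26 without and 8.89, 9.14 and 8.92 with CHOEP, a 3.30-fold rise (log2 fold change 1.72 ± 0.16 SE, adjusted p = 1.16e-08). H4C8 read 7.96, 7.99 and 8.02 without and 8.91, 9.42 and 9.43 with CHOEP, a 2.40-fold rise (adjusted p = 1.59e-05). The treated arrays lay above all untreated ones for both. In HD-MAR-2 these genes rose by 0.80 and 0.79 on the log2 scale (adjusted p = 0.000468 and 0.0023), below the fold threshold. H2AC11 lay near the detection limit in untreated HD-MAR-2 cells.

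The genes downregulated in SUP-T1 were H2BC7 (HIST1H2BF), H3C15 (HIST2H3A), H2AC4 (HIST1H2AB), H3C14 (HIST2H3C) and H1-5 (HIST1H1B), from 4 families. For all 5, SUP-T1 was the line with the highest untreated level, as it was for 25 of 53 clustered genes (47.2%). Genes near the detection limit can be called down only where they start high, so that this is no independent evidence. H2BC7 fell by 1.43 ± 0.14 (SE) on the log2 scale, from 9.51, 9.56 and 9.59 to 8.17, 8.40 and 7.80 (adjusted p = 2.26e-08). It was the only one of the 5 that was detected on all arrays. H3C14 read 6.80, 6.90 and 6.88 in untreated SUP-T1 cells and was detected on no treated array, at least 1.75-fold lower (adjusted p = 1.09e-06). H3C15 was likewise lost, at least 1.64-fold lower (adjusted p = 1.23e-05). H2AC4 fell by 1.25, from 7.01, 7.34 and 7.35 to 5.96, 6.35 and 5.64, with 1 treated array detected. H1-5, a linker histone, fell by 1.17, from 7.31, 7.58 and 7.25 to 6.06, 6.24 and 6.34. Of these 5 calls, only that of H2BC7 was kept with the normalised values of the authors or an offset of 50 before log2. The other 4 genes lie near the detection limit.

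HD-MAR-2 and SUP-T1 were compared directly after their results had been seen. The effect was higher in HD-MAR-2 for 28 of 53 clustered genes and lower for 2 (limma, adjusted p under 0.05), against 5.4% and 5.95% of all genes. Of the 13 variant genes, 1 was higher (H2AJ) and 0 lower, with 3 at an unadjusted p under 0.05 (3280 of all 12482 genes). The largest difference was that of H4C1 (2.53 ± 0.23 SE on the log2 scale, adjusted p = 1.06e-08), followed by H3C12 (2.23) and H4C2 (2.08). The 2 genes with a lower effect in HD-MAR-2 were H2AC11 (-0.92, adjusted p = 0.00938) and H2BC5 (-0.87, adjusted p = 8.97e-05). H2AC11 lay near the detection limit in untreated HD-MAR-2 cells (6.25, 6.07 and 5.70), which limits its rise there. The second H2BC5 probe, given above, changed more in HD-MAR-2 than in SUP-T1. In all, 8 clustered genes passed upwards in HD-MAR-2 and downwards in SUP-T1, each at an adjusted p under 0.05, namely H1-4, H2AC20 (HIST2H2AC), H2AC25, H2BC8, H3C1, H3C12, H3C14 and H4C2. Of these, H2AC20, H3C12 and H4C2 were detected on all arrays of both lines. H1-4 was detected on 1 of 6 HD-MAR-2 arrays, H3C1 on 1 of 3 untreated HD-MAR-2 and 1 of 3 treated SUP-T1 arrays, and H2AC25, H2BC8 and H3C14 on no treated SUP-T1 array. No clustered gene passed in the opposite directions, and the share of all genes was counted for neither pattern.

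**Figure D5:**
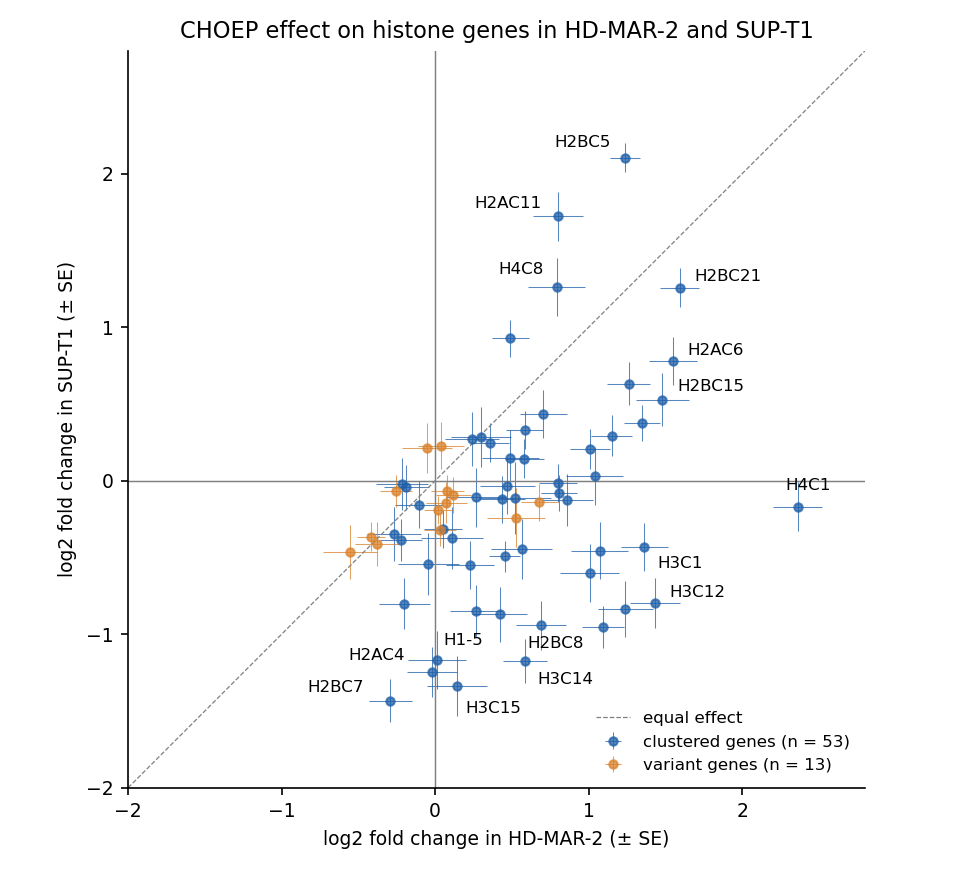
Log2 fold change with CHOEP in HD-MAR-2 (horizontal) and SUP-T1 (vertical) of each tested histone gene, with standard errors, for 53 clustered (blue) and 13 variant (orange) genes, and the line of equal effect (dashed). Most clustered genes lie below the dashed line, with H4C1 farthest to the right at 2.36, while H2BC5, H2AC11 and H4C8 lie above it.

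Across the 53 clustered genes, the effects in HD-MAR-2 and SUP-T1 had a Pearson correlation of 0.38 (Spearman 0.38), and over the 10 pairs of lines Pearson values lay between 0.29 and 0.46. The genes share the arrays of a line, some share sequence, and no array enters both lines of a pair.

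In HH no clustered gene passed a fold change of 2, but 17 rose at an adjusted p under 0.05. Of these, 16 also rose in HD-MAR-2, where 32 of 53 clustered genes did, an overlap not counted over all genes. Among the 17 genes, H4C8 (0.78 on the log2 scale), H4C14 (0.69) and H2BC8 (0.69) had the largest values of those detected in both conditions. H2BC17 (HIST1H2BO) and H2BC15 were detected on no untreated HH array. H2BC5 rose by 0.56 in HH, from 11.39, 11.55 and 11.37 to 11.92, 12.01 and 12.06 (adjusted p = 0.00013), and H2BC21 by 0.55, from 9.51, 9.34 and 9.27 to 9.88, 9.95 and 9.94 (adjusted p = 0.00223). In KARPAS-299 the gene that rose was H2BC12 (HIST1H2BK; 0.65, adjusted p = 0.000671), and H2AC13 (HIST1H2AI) passed with -0.57 (adjusted p = 0.0447), a difference between signals at background, since no KARPAS-299 array detected it. Both were named after their values had been seen. H2BC5 had the smallest adjusted p among clustered genes in JURKAT (0.38, adjusted p = 0.136).

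On average over the 5 lines, 19 of 53 clustered genes rose and 5 fell (17.8% and 20.1% of all genes). Scaling each array to its median in place of quantile normalisation gave 14 and 8, a scaling with which the values of all genes had a median of -0.18 on the log2 scale for SUP-T1 and -0.20 for HD-MAR-2 cells. The 8 largest average changes were rises, of H2BC5 (0.89 ± 0.04 SE), H2AC11 (0.80), H2BC21 (0.77), H2AC6 (0.64), H2BC15 (0.62), H4C1 (0.60), H4C8 (0.56) and H4C14 (0.54). The 5 that fell were H2BC7 (-0.34), H3C15 (-0.29), H2AC4 (-0.23), H1-5 (-0.23) and H3C2 (HIST1H3B; -0.23, named after its value had been seen). The effect differed between lines for 39 of 53 clustered genes (35.1% of all genes) and 3 of 13 variant genes.

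Several H2A and H2B genes lie head to head and share the stretch between their starts. RefSeq gives 11 such pairs, with starts 192 to 246 bases apart, and both genes were tested in 6. In these 6 the values of partners were often unlike. In SUP-T1, H2AC11 changed by 1.72 and its partner H2BC11 (HIST1H2BJ) by -0.02. H2BC21 changed by 1.26 and H2AC20 by -0.49. H2AC7 (HIST1H2AD), the partner of H2BC7, was detected on no SUP-T1 array. In HD-MAR-2, H2AC6 changed by 1.55 and H2BC4 (HIST1H2BC) by -0.22, whereas H2BC11 and H2AC11 changed by 0.80 and 0.80, the latter detected on 1 of 3 untreated arrays, and H2BC8 by 1.09 beside H2AC8, which no untreated array detected. The difference within a pair was not tested, and the probes of 2 genes need not respond alike.

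The changes of variant genes were smaller in size. With the adjusted p alone, 2 of 13 rose and 3 fell in HD-MAR-2 (14.9% and 15.8% of all genes). In SUP-T1, 0 rose and 3 fell (12.3% and 13.9% of all genes). H2AZ1, the H2A.Z histone at active promoters, was lower with CHOEP in HD-MAR-2 (15.26, 15.08 and 15.16 untreated, 14.75, 14.82 and 14.68 treated) and in SUP-T1 (15.17, 15.05 and 15.38 untreated, 14.83, 14.89 and 14.79 treated), with no overlap in either. It fell by 0.42 (adjusted p = 0.00114) and by 0.36 (adjusted p = 0.00468) on the log2 scale. Its paralogue H2AZ2 fell by 0.38 and 0.41 (adjusted p = 0.0464 and 0.0358), calls that were lost when each line was fitted alone. Without untreated replicate 1 of HD-MAR-2 its value there was -0.16. H2AX (H2AFX), which is phosphorylated at DNA breaks, fell by 0.56 in HD-MAR-2 (adjusted p = 0.0178), but without untreated replicate 1 its value was -0.37 and did not pass, nor did it without treated replicate 2 (-0.46). Its change in SUP-T1 was -0.46 (adjusted p = 0.0552).

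H2AJ (H2AFJ), an H2A variant that rises in senescent cells, moved the other way. It read 8.68, 9.04 and 8.72 in untreated and 9.49, 9.45 and 9.53 in treated HD-MAR-2 cells, a rise of 0.68 (adjusted p = 9.09e-05). In HH it rose by 0.56, from 10.63, 10.57 and 10.68 to 11.09, 11.29 and 11.17 (adjusted p = 0.00131). Its effect in SUP-T1 was -0.14 (adjusted p = 0.442), and the difference between these lines passed the test (0.82, adjusted p = 0.00177). With median scaling the HD-MAR-2 value was 0.38 and no longer passed. MACROH2A2 changed by 0.53 in HD-MAR-2 (adjusted p = 0.0402), but treated and untreated arrays overlapped, and the call was lost when any of 5 of the 6 arrays was left out (0.31 without treated replicate 1). MACROH2A1 (H2AFY) fell by 0.32 in SUP-T1 (adjusted p = 0.0283), and without untreated replicate 3 its value was -0.22 and did not pass.

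The replacement H3 genes had small effects in all 5 lines. The 4 tested genes, H3-3A, H3-3B (H3F3B), H3-5 (H3F3C) and H3P6 (H3F3AP4), had log2 fold changes between -0.26 and 0.19 on their main probes, none at an adjusted p under 0.05. H3-3A read 15.39, 15.53 and 15.45 in untreated and 15.54, 15.52 and 15.37 in treated HD-MAR-2 cells, and the groups overlapped. A further H3-3A probe fell by 0.33 in HD-MAR-2 (adjusted p = 0.00516). The remaining H3-3A probe was also lower there, at 15.15, 15.01 and 15.02 untreated and 14.92, 14.88 and 14.76 treated, with no overlap. Whether signals as high as those of the main probe are compressed was not tested. H3-5 and the pseudogene H3P6 derive from H3-3A, so that their probes may read its mRNA. H1-10 passed the test in no line, and neither did H2AB1 (-0.04) and H2AB2 (0.06) in KARPAS-299, the line that expressed them. On average over the lines, H2AJ rose (0.24, adjusted p = 0.000895), and H2AZ1 (-0.18, adjusted p = 0.00145) and H2AZ2 (-0.27, adjusted p = 0.00187) fell.

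DNA replication genes fell in both lines in which clustered histone genes were called. Of 26 genes of the replication machinery tested, SUP-T1 had 4 and HD-MAR-2 had 7 called down (0.817% and 1.8% of all genes), and 24 had an adjusted p under 0.05 and fell in each (13.9% and 15.8%). With median scaling, 11 and 16 were called down, and with the normalised values of the authors 1 and 6. Their median log2 fold change was -0.81 for HD-MAR-2, -0.71 for SUP-T1, 0.04 for KARPAS-299, -0.05 for JURKAT and -0.13 for HH, beside 0.56, -0.12, -0.06, 0.03 and 0.29 for the clustered histone genes. RRM2, a subunit of ribonucleotide reductase, fell by 1.54 and 1.52, in that order of the lines. CDC6, which loads the MCM helicase, fell by 1.21 and 1.56, MCM10 by 1.34 and 1.04, and ORC1 by 0.90 and 0.82. CDC6 was detected on 0 treated HD-MAR-2 arrays and 1 treated SUP-T1 array, so that background limits its values.

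Of the 20 genes listed for histone mRNA synthesis and processing, 18 were tested. SLBP, which binds the stem-loop of replication-dependent histone mRNA, was the only one called. It read 11.95 ± 0.18 (SD, n = 3) in untreated and 10.75 ± 0.17 in treated HD-MAR-2 cells and fell by 1.20 (limma adjusted p = 4.56e-08). In SUP-T1 it fell by 0.65 (adjusted p = 0.000367), and in KARPAS-299, JURKAT and HH its log2 fold changes were 0.20, 0.05 and 0.09, none past the test. On average over the lines 2 genes of the list rose and 6 fell (17.8% and 20.1% of all genes). ERI1, an exonuclease that trims the histone stem-loop, fell by 0.39 on average, LSM11 of the U7 particle by 0.38 and CSTF2 by 0.31, while TUT7 (ZCCHC6), a uridylyltransferase, rose by 0.41. LSM11 was detected on 16 of the 30 arrays, so that its average includes groups at background.

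Of 25 histone chaperone and exchange genes, CHAF1A, CHAF1B and HAT1 were called down in HD-MAR-2 (1.8% of all genes). SUP-T1 had CHAF1A and CHAF1B called down (0.817% of all genes). HAT1 fell by 1.05 in HD-MAR-2, with an SD of 0.61 over its untreated arrays. With the normalised values of the authors, 1 gene was called down in HD-MAR-2 (3 as reported). The SUP-T1 calls were lost with the normalised values of the authors, without background correction and with an offset of 50. CHAF1A and CHAF1B, subunits of the chromatin assembly factor that deposits histones behind the replication fork, fell by 1.18 and 1.21 in HD-MAR-2, while SUP-T1 had falls by 1.02 and 1.02. On average over the lines 1 chaperone gene rose and 11 fell (17.8% and 20.1% of all genes), among them SUPT16H of the FACT complex (-0.33) and ANP32E, a remover of H2A.Z (-0.28). ANP32E was detected on 14 of the 30 arrays and on 0 treated arrays of HD-MAR-2 and SUP-T1. The lists are given by counts and medians only and no set was tested.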

How the data were processed

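The members, lists and tests were chosen with earlier results of these data known. The authors deposited signal intensities and detection p-values of each array as read by BeadStudio (version 3 per the submitters' processing notes), and lumi values on the log2 scale after robust spline normalisation. Gene names came from the platform annotation of GEO through Entrez numbers, and older symbols from RefSeq. Labels and paper differ on the RNA extraction kit.

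Intensities were background-corrected, quantile normalised and log2 transformed by neqc (limma 3.58.1, R 4.3.3, offset 16), which took the background from the detection p-values. The filter kept 22652 probes, those detected (p under 0.01) on 3 or more arrays. A linear model with 1 mean per group (20 residual degrees of freedom) was fitted to all 30 arrays with empirical Bayes moderation, with Benjamini-Hochberg adjustment over all kept probes. A gene was called where the adjusted p was under 0.05 and the change 2-fold or more. The fit was tested on simulated data. Probe levels were compared across lines and treatments only, never between probes. The text names every histone gene called in at least 1 line, every variant gene tested, HIST1H2BD and HIST2H2BE, the 8 clustered genes with the largest average change, the 3 clustered and 3 variant genes with the widest untreated range, and up to 4 genes of each pathway list. Further genes are named in pairs, counts or as the next in size after their values were seen. Precision is limited by the number of arrays.

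The replicate numbers did not pair the arrays. Alternatives were the authors' values, median scaling, no background correction, quantile normalisation per chip, an offset of 50, no or stricter detection filters, a detection p of 0.05, an intensity trend with robust variance, a replicate block, no fold threshold, any probe of a gene, each line alone, and each array left out. The comparison of HD-MAR-2 with SUP-T1 was added after the data had been seen. Promoter sequences came from RefSeq (GRCh38.p14).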

Additional observations from a re-analysis of the deposited data

Results flagged for a closer look

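The CHOEP effect differed between the 5 lines for 27 of the 38 named histone genes (limma F test of the differences between the within-line effects, adjusted p in parentheses), 24 of 25 clustered and 3 of 13 variant genes, against 35.1% of all genes. Most of the clustered genes were named because they were called in a line, so that this count is no independent evidence. Each line lies on its own chip, and whether chips contribute was not tested.

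The 4 genes called up in SUP-T1 were H2BC5 (8.64e-11), H2BC21 (6.34e-07), H2AC11 (0.000238) and H4C8 (0.00079). Genes that passed upwards in HD-MAR-2 and downwards in SUP-T1 were H3C12 (4.43e-07) and H4C2 (3.96e-06), and, with few or no arrays detected in at least 1 group, H2BC8 (3.3e-08), H3C1 (1.53e-06), H3C14 (4.1e-06), H1-4 (8.82e-05) and H2AC25 (0.00107). The other genes called down in SUP-T1 were H2BC7 (3.1e-06), H2AC4 (0.00012), H3C15 (0.000492) and H1-5 (0.00213). The remaining genes called up in HD-MAR-2 were H4C1 (6.43e-09), H3C4 (1.56e-06), H2AC6 (5.26e-05), H4C12 (5.48e-05), H4C14 (0.000107), H2AC17 (0.000522), H2BC15 (0.000602), H2AC18 (0.00142) and H2AC8 (0.0154).

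Among variants, H2AJ (0.00108), H2AZ1 (0.0211) and H2AX (0.0429) differed between lines. H2AJ had log2 fold changes of 0.56 in HH, 0.68 in HD-MAR-2 and between -0.14 and 0.07 in SUP-T1, KARPAS-299 and JURKAT, and H2AZ1 of -0.36 in SUP-T1, -0.42 in HD-MAR-2 and between -0.12 and 0.03 in the other lines. Groups of 3 arrays were not searched for outlying arrays.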

How the results depend on the processing

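All 25 gene values called in a line kept their direction under every alternative run (40 each), and 8 of the 25 stayed called throughout: H4C1, H2AC6 and H2BC21 in HD-MAR-2, and H2BC5, H2BC21, H2AC11, H4C8 and H2BC7 in SUP-T1. No named value changed sign where the reported or the alternative fit had an adjusted p under 0.05. Sign changes with neither were not counted. Clustered genes called up in HD-MAR-2 numbered 16 in the reported fit, 5 with the authors' values, 5 without background correction, 9 with median scaling, 9 with an offset of 50, 32 without a fold threshold and 12 to 16 with 1 array left out, the lowest without untreated replicate 1. In SUP-T1 the 4 called up became 10 without a fold threshold, and the 5 called down became 1 with the authors' values, 1 without background correction, 1 with an offset of 50, 10 with median scaling, 17 without a fold threshold and 5 to 7 with 1 array left out. The share called up in SUP-T1 was 44.4% as reported, 80% with the authors' values and 28.6% with median scaling. A higher offset and no background correction compress folds near background by construction; for median scaling the cause was not tested.

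Without a fold threshold, 1 clustered gene was called up and 1 down (H2AC13, at background) in KARPAS-299 and 17 up in HH, and among variants 2 up and 3 down in HD-MAR-2, 3 down in SUP-T1 and 1 up in HH. Clustered genes down on average were 8 with median scaling (5 as reported), and variant genes up on average 2 without background correction, 2 with an offset of 50 and 0 with median scaling (1 as reported; 1 to 2 with 1 array left out, 2 without treated replicate 3 of HD-MAR-2 or 2 of SUP-T1). Clustered genes with a lower effect in HD-MAR-2 than in SUP-T1 were 1 with median scaling (2 as reported), and variant genes with a higher effect 1 to 2 with 1 array left out (2 without treated replicate 3 of HD-MAR-2 or of SUP-T1, or untreated replicate 3 of SUP-T1). Replication genes called down in HD-MAR-2 were 16 with median scaling and 24 without a fold threshold (7 as reported), and in SUP-T1 1 with the authors' values, 1 without background correction, 11 with median scaling and 24 without a fold threshold (4 as reported). Chaperone genes called down in HD-MAR-2 were 1 with the authors' values and 8 without a fold threshold (3 as reported), and in SUP-T1 0 with the authors' values, without background correction or with an offset of 50, 9 without a fold threshold (2 as reported) and 1 to 2 with 1 array left out. The value was 1 without treated replicate 2 or 3 or untreated replicate 3. Histone mRNA genes called down were 2 with median scaling and 6 without a fold threshold in HD-MAR-2 (1 as reported), and 1 and 4 in SUP-T1 (0 as reported).

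Same-numbered treated and untreated arrays had residuals correlated above 0.1 for 3 of 15 numbers, and 6 of the 15 treated arrays were closest to the untreated array of their number. With the replicate block, 16 clustered genes were called up in HD-MAR-2, and 4 up and 5 down in SUP-T1; on average 18 rose and 7 fell. No count moved by over 1.5 times, and H2AZ2 no longer passed in HD-MAR-2 and SUP-T1, nor MACROH2A2 in HD-MAR-2, H2BC15 in SUP-T1, and H2AC25 in SUP-T1 and on average. H3C3 passed on average with the block (-0.16) and not as reported, and no other call of a named gene changed.

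Signals near the detection limit (log2 5.92 to 6.43 on these arrays) limit the size of changes of low genes such as H2AC8, H3C14 and H3C15. Near-identical histone genes cannot be told apart by these probes.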

Other observations

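Further clustered genes were looked at after their values had been seen. H2BC12 (HIST1H2BK), another H2B gene, had log2 fold changes of 0.93 in SUP-T1, 0.65 in KARPAS-299, 0.49 in HD-MAR-2, 0.34 in HH and 0.20 in JURKAT, and rose on average by 0.52 (limma adjusted p = 3.59e-08). On its second probe the average was 0.49 (adjusted p = 5.99e-05). The linker histone H1-2 (HIST1H1C) rose by 0.71 in HD-MAR-2, 0.53 in HH and 0.43 in SUP-T1 (adjusted p = 0.00109, 0.0178 and 0.0416), while KARPAS-299 gave -0.25. H1-2 and H1-4, both H1 genes on chromosome 6, thus moved in opposite directions in SUP-T1. There H1-4 fell by 0.94, and the difference between the genes was not tested.

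The 3 probes of H3C13 (HIST2H3D) gave different values. In SUP-T1 they changed by -0.31, -0.37 and -1.13, and only the last, which is not the brightest, passed an adjusted p of 0.05 (8.01e-05). In HD-MAR-2 they changed by 0.05, 0.22 and 0.63.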
